A study of Drosophila melanogaster with 48 samples.

Results

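The midline genes single-minded (sim), slit (sli) and wrapper were followed across 48 RNA sequencing libraries from sorted Drosophila melanogaster embryo cells. They were taken by name as midline genes, with earlier results of these data known, and they are 3 of 17257 genes quantified. For each gene, TPM (a relative transcript level, scaled for transcript length and for the total of its library) was summed over its transcripts in every library. The question was where these genes are expressed along the neuroglial lineage, and whether cells of the ventral column differ in them from the other populations.

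The ventral midline of the fly embryo arises from the mesectoderm, a single row of cells on each side of the mesoderm that meets its partner when the mesoderm invaginates. The midline lies next to the ventral neurogenic column, which expresses the homeodomain factor Vnd. Sim is a transcription factor of the bHLH-PAS family that binds DNA with its partner Tango and directs the midline fate. Slit is a large secreted protein made by midline glia. It repels growing axons that carry Robo receptors and so keeps them from crossing or recrossing the midline. Wrapper is an immunoglobulin-type membrane protein of midline glia, through which these cells enwrap commissural axons. Midline glia do not express Repo, the marker of the other glia of the embryo.

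The libraries formed 24 groups of 2 replicates, a marker-positive and a marker-negative fraction for each of 12 sorts. Ind (intermediate column), Vnd (ventral column) and Pros (neuroblasts and ganglion mother cells) were sorted from embryos of 4-6h and 6-8h, and Elav (neurons) and Repo (glia) from embryos of 6-8h, 8-10h and 18-22h after egg laying. All flies carried a yellow white background, and cells were fixed with formaldehyde before sorting. Ind-positive cells were marked by an enhancer of ind that drove dsRed at 4-6h (line ind_1.4::dsRed) and GFP at 6-8h (line ind_1.4::GFP). Vnd-positive cells at both times came from the line vnd_743::dsRed, in which an enhancer of vnd drives dsRed. These 2 populations were thus chosen by a reporter and not by the protein itself. The Pros, Elav and Repo cells were stained for the endogenous protein. They came from the lines vnd-lexA/VC:FNLDD (both Pros sorts, 8-10h and 18-22h Repo, 18-22h Elav), ind_1.4::GFP (6-8h Repo, 6-8h Elav replicate 1) and yw (6-8h Elav replicate 2, 8-10h Elav). No other population came from the Vnd line, so in a comparison of Vnd-positive cells with other positive cells the line and the population cannot be told apart, whereas both fractions of each sort replicate came from 1 line. The study describes the replicates as biological duplicates, and in 6-8h Elav they also differed in fly line. With 2 per group, the tests rest on the spread between these libraries.

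Total estimated reads ranged from 18120862 to 113452420 per library, and the reads assigned to a single library ranged from 103 to 4640 for sim, from 19796 to 195804 for sli and from 151 to 7884 for wrapper. The Vnd sort followed its gene: vnd was at 90.4 and 97.7 TPM in 4-6h Vnd-positive cells against 23.9 and 27.2 TPM in Vnd-negative cells, and at 158 and 187 against 22.1 and 20.6 TPM at 6-8h. Chemosensory receptor genes, known from sense organs of larvae and adults, served as a measure of background, and their level differed between libraries. Its median over 160 receptor genes was 4.51 to 14.5 TPM in the 8 Vnd libraries and 0.0239 to 18.8 TPM in the other 40. Vnd-positive libraries (6.41 to 14.5 TPM) lay above Ind-positive libraries (0.0239 to 1.53 TPM) without overlap. The level of sim was below the receptor median of its own library in 4 of 48 libraries (8-10h Repo-positive replicate 2, 18-22h Elav-negative replicate 2 and both 18-22h Repo-positive libraries), and sli and wrapper were above it in all 48.

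The gene sim (FBgn0004666) lies on chromosome 3R from 13057755 to 13078124 on the plus strand (BDGP6.54, the assembly dm6) with 4 annotated transcripts, and overlaps no other gene. On chromosome 2R, sli (FBgn0264089) runs from 15869495 to 15922118 on the minus strand with 6 transcripts. Within these limits an annotated long noncoding RNA gene, lncRNA:CR44373, lies on the opposite strand. The libraries were stranded. The gene wrapper (FBgn0025878) lies on chromosome 2R from 22379637 to 22382675 on the plus strand with 1 transcript, and overlaps no other gene.

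Transcripts of sim were most abundant in the Vnd-positive cells of both times, and low in Ind-positive cells and in Repo-positive cells of 6-8h and 18-22h. At 4-6h, Vnd-positive cells held 50.9 and 51.4 TPM of sim in the 2 replicates, a mean of 51.1 ± 0.355 (SD, n = 2). At 6-8h they held 57.1 and 62.3 TPM (59.7 ± 3.65). The Vnd-negative cells had 12.8 and 15.3 TPM at 4-6h, and 15.5 and 18.9 TPM at 6-8h. All 4 Vnd-positive libraries were above every other library, the highest of which was 8-10h Elav-positive replicate 2 at 22.4 TPM. That library had the fewest reads (18120862 in all, 510 of them for sim) and a receptor median of 15.4 TPM. These are bulk samples, in which fewer cells of a type and less RNA per cell cannot be told apart. Next to this population (17.3 and 22.4 TPM), the neurons of the other times measured 12.8 and 11.9 TPM at 6-8h and 13.2 and 11.8 TPM at 18-22h. Neuroblasts were close to them, with 11.5 and 11.1 TPM in 4-6h Pros-positive and 11.4 and 11.7 TPM in 6-8h Pros-positive cells. The lowest means in TPM were found in the intermediate column, at 3.803 and 1.46 TPM at 4-6h and at 1.70 and 2.56 TPM at 6-8h.

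In glia the level of sim varied between replicates and times. Repo-positive cells measured 1.60 and 6.85 TPM at 6-8h, 7.08 and 15.4 TPM at 8-10h, and 3.11 and 3.16 TPM at 18-22h. The replicates differed by more than 2-fold at the first 2 times, and the lower value at 6-8h was as low as in the intermediate column. At both of these times the replicate with more sim also had the higher receptor median. It was 0.441 and 5.09 TPM at 6-8h, and 4.43 and 18.8 TPM at 8-10h. Besides the Vnd-negative cells, the negative fractions of the early sorts held 9.96 and 12.02 TPM for 4-6h Ind, 8.52 and 8.55 TPM for 6-8h Ind, 9.97 and 12.5 TPM for 4-6h Pros, and 8.37 and 9.17 TPM for 6-8h Pros. Elav-negative cells had 6.96 and 9.74 TPM at 6-8h, 6.55 and 14.9 TPM at 8-10h, and 2.40 and 7.92 TPM at 18-22h, with more than 2-fold between the replicates of 8-10h and of 18-22h. There too the receptor median was higher in the replicate with more sim (0.476 and 7.50 TPM at 8-10h, 0.1255 and 14.0 TPM at 18-22h). Repo-negative cells had 7.84 and 8.91 TPM at 6-8h, 10.2 and 9.84 TPM at 8-10h, and 7.66 and 7.58 TPM at 18-22h. From the highest to the lowest group mean sim spanned 28.0-fold. When the 24 groups were ordered by mean, 18 of the 23 neighbouring pairs overlapped and so did not differ beyond their spread. The pairs without overlap included 6-8h against 4-6h Vnd-positive cells, and 4-6h Vnd-positive against 8-10h Elav-positive cells. In CPM (counts scaled to the library total, without transcript length, and by the TMM factors given with the tests) the 2 Vnd-positive groups were again first and second, with 4-6h first. The lowest mean CPM was in 18-22h Repo-positive cells (5.7), next to 6-8h Ind-positive cells (5.93), and 4-6h Ind-positive cells were at rank 20 (8.04). Repo-positive replicates had 3.09 and 10.3 CPM of sim at 6-8h and 10.6 and 13.9 CPM at 8-10h. Elav-negative replicates had 13.3 and 18.6 CPM at 8-10h and 7.25 and 8.22 CPM at 18-22h.

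**Figure D1:**
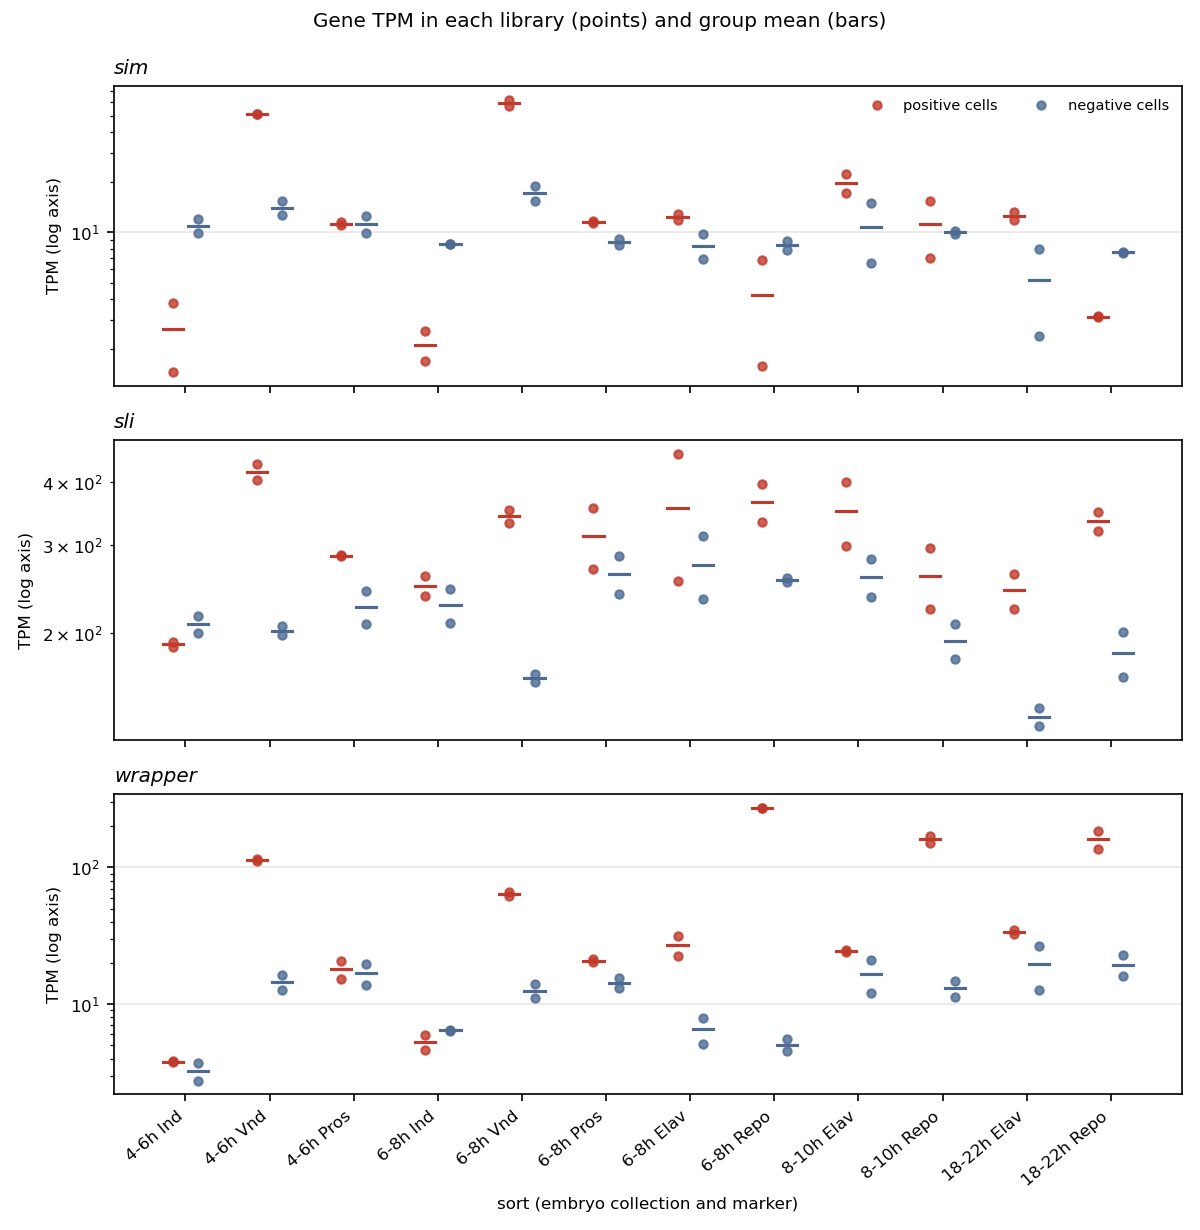
Level of sim, sli and wrapper in each of the 48 libraries, as gene TPM on a log axis, by sort along the horizontal axis (points are libraries, bars are means of 2 replicates, red is marker-positive and blue marker-negative). The 4 Vnd-positive libraries of sim (50.9 to 62.3 TPM) are above every other library, wrapper is highest in Repo-positive cells (136 to 272 TPM) with Vnd-positive cells next (62.2 to 115 TPM), and sli spans only 130 to 456 TPM over all libraries.

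Enrichment was tested in marker-positive against marker-negative cells of each sort. Read counts were fitted with edgeR for all 48 libraries together, scaled by trimmed mean of M-values (TMM) factors. Calls of enrichment or depletion needed an adjusted p under 0.05 across 17109 genes together with a log2 fold change beyond 1 or -1. In 4-6h Vnd-positive cells sim was enriched, with a log2 fold change of 1.71 ± 0.39 (SE, 2 against 2 libraries, adjusted p 0.0316), a 3.63-fold ratio of mean TPM. In that comparison 0.684% of all genes were called in either direction, and 2 of the 3 midline genes. The call for sim was lost when any of the 4 libraries was left out (1.56 to 1.84, adjusted p from 0.0831 to 0.631). With 1 library fewer, 0 to 61 genes were called in all, against 117 with all libraries. Muscle and mesoderm markers were lower in the same cells, with 2 of 7 called depleted and a summed level of 597 and 696 TPM in 4-6h Vnd-positive against 1955 and 1836 TPM in 4-6h Vnd-negative cells. Their part in the result was not tested.

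At 6-8h the log2 fold change of sim in Vnd-positive cells was 1.55 ± 0.39, and it was not called (adjusted p 0.143), although the 2 fractions did not overlap in TPM. Only 0.140% of genes (24) were called there. The difference between the times was not significant (-0.16 ± 0.54, adjusted p 1), and a call at 4-6h alone is therefore no difference between the times. By DESeq2 (1.68, adjusted p 0.000761) and with the median-of-ratios factors (1.68, adjusted p 0.0237), sim passed the threshold at 6-8h also.

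The intermediate column was depleted of sim. The log2 fold change of Ind-positive against Ind-negative cells was -2.20 ± 0.40 at 4-6h (adjusted p 0.000715) and -1.91 ± 0.40 at 6-8h (adjusted p 0.00498). At these times 4.49% and 2.33% of all genes were called, and 1 of the 3 midline genes each. Markers of muscle and mesoderm were also low in these cells: 6 of 7 were called depleted at each time, and their summed level was 221 to 264 TPM in 4-6h Ind-positive and 646 to 845 TPM in 4-6h Ind-negative cells. Their part in the result was not tested. Without 6-8h Ind-positive replicate 1 the later call was lost (-1.74, adjusted p 0.176).

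In glia, sim was depleted at 6-8h (-1.64 ± 0.40, adjusted p 0.00364), where 17.8% of genes were called, and this rested on the library with the lowest value. Without Repo-positive replicate 1 the change was -0.89 (adjusted p 0.131). At 8-10h the change was -0.39 ± 0.39 (adjusted p 0.86) and at 18-22h -1.09 ± 0.39 (adjusted p 0.113), neither of them called. In neurons sim was enriched at 18-22h (1.22 ± 0.39, adjusted p 0.0235), a comparison in which 20.8% of genes were called. There the call was lost without Elav-negative replicate 1 (1.23, adjusted p 0.084), without Elav-negative replicate 2 (1.32, adjusted p 0.0522) and without Elav-positive replicate 2 (0.96, adjusted p 0.163). The changes in the other Elav and Pros sorts, between 0.27 and 0.70, were not called, and in these sorts 13.5% (8-10h Elav), 5.78% (4-6h Pros) and 3.57% (6-8h Pros) of all genes were.

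Transcripts of wrapper were most abundant in Repo-positive glia. Repo-positive cells held 272.2 and 272.5 TPM at 6-8h, 169 and 151 TPM at 8-10h, and 136 and 185 TPM at 18-22h. The matching Repo-negative cells had 4.51 and 5.56 TPM at 6-8h, 11.3 and 14.9 TPM at 8-10h, and 16.1 and 22.9 TPM at 18-22h. No negative library came near a positive one, and the Repo-positive groups took the first 3 ranks of 24. The ventral column followed at 111 and 115 TPM in 4-6h Vnd-positive and 66.3 and 62.2 TPM in 6-8h Vnd-positive cells. The Vnd-negative cells had 12.7 and 16.3 TPM at 4-6h and 14.1 and 11.0 TPM at 6-8h. Both Vnd-positive groups were thus apart from their negative fraction, from each other and from the neurons ranked next.

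Neurons held less wrapper, at 22.3 and 31.7 TPM at 6-8h, 24.2 and 24.9 TPM at 8-10h, and 35.0 and 32.6 TPM at 18-22h. Elav-negative cells had 5.12 and 7.97 TPM at 6-8h, 12.1 and 21.0 TPM at 8-10h, and 12.6 and 26.8 TPM at 18-22h. The neuron values lay above the negative values at every time, by the least at 8-10h. Pros-positive cells had 20.7 and 15.3 TPM at 4-6h and 21.2 and 20.2 TPM at 6-8h, and Pros-negative cells 19.8 and 13.8 TPM and 15.6 and 13.1 TPM. The 2 fractions overlapped at 4-6h only. The intermediate column was low in both fractions, with 3.76 and 3.83 TPM in positive and 3.69 and 2.76 TPM in negative cells at 4-6h, and 4.64 and 5.90 TPM against 6.50 and 6.41 TPM at 6-8h. Group means spanned 84.5-fold, and 13 of 23 neighbouring pairs in the order overlapped.

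In the Repo sorts wrapper was enriched at all 3 times. The log2 fold change was 5.09 ± 0.38 at 6-8h (adjusted p 4.31e-10), 3.37 ± 0.35 at 8-10h (adjusted p 3.67e-07) and 3.25 ± 0.34 at 18-22h (adjusted p 2.09e-07). At 8-10h and 18-22h 3.88% and 5.85% of all genes were called. The ratio of mean TPM was 54.1-fold at 6-8h, 12.2-fold at 8-10h and 8.25-fold at 18-22h. The difference between 8-10h and 6-8h enrichment was -1.72 ± 0.45 and was not called (adjusted p 0.229).

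In the ventral column wrapper was enriched at both times, by 2.74 ± 0.34 at 4-6h (adjusted p 0.000104) and by 2.10 ± 0.33 at 6-8h (adjusted p 0.0025). The ratio of mean TPM was 7.83-fold and 5.11-fold. Among the 3 midline genes wrapper alone was called at 6-8h. The call at 4-6h was lost without Vnd-negative replicate 1 (2.69, adjusted p 0.113). At 6-8h it was lost without Vnd-negative replicate 1 (2.25, adjusted p 0.204), Vnd-negative replicate 2 (1.89, adjusted p 0.61) and Vnd-positive replicate 2 (1.99, adjusted p 0.329), settings in which 0 to 6 genes were called in all.

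Markers of Repo-positive glia were compared in the same sorts, where 0.684% (4-6h) and 0.140% (6-8h) of all genes were called. Of 8 listed markers, edgeR called 0 at 4-6h (1 at an unadjusted p under 0.05, and 1 by DESeq2, nrv2) and 1 at 6-8h, which was depleted. At 6-8h 2 were at an unadjusted p under 0.05, and DESeq2 called 2 in either direction, gcm and moody. The summed level of the 8 markers was 575 and 601 TPM in 4-6h Vnd-positive against 418 and 408 TPM in Vnd-negative cells, and 524 and 538 against 499 and 492 TPM at 6-8h. In 6-8h Repo-positive cells it was 5010 and 4426 TPM. The marker repo itself measured 23.9 and 22.8 TPM in 4-6h Vnd-positive and 18.3 and 17.4 TPM in 4-6h Vnd-negative cells, and none of the libraries had it at 0. Of the 5 sorting markers (ind, vnd, pros, elav and repo) edgeR called 1 enriched at each time, and DESeq2 called elav, pros and vnd at both. The summed level of the 5 was 836 and 953 TPM in 4-6h Vnd-positive against 325 and 318 TPM in Vnd-negative cells. At 6-8h it was 1092 and 1285 against 335 and 322 TPM. The part of these markers in the results was not tested. With the receptor level as a covariate, the enrichment of wrapper was 2.78 (adjusted p 2.06e-06) and 2.14 (adjusted p 7.48e-05), and that of sim 1.69 (adjusted p 0.0128) and 1.53 (adjusted p 0.0446).

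In neurons wrapper was enriched at 6-8h only by the criteria used, with 1.85 ± 0.33 (adjusted p 9.98e-05), and 17.0% of all genes were called in that sort. Here the numbers of the replicates stand for 2 fly lines in both fractions and so pair the libraries. With this pairing as a replicate block the enrichment was 1.87 (adjusted p 0.0003). In a fit of only the groups compared the call was lost (1.89, adjusted p 0.0591). Glial markers were higher in the same cells: 4 of 8 were called enriched, the summed level was 956 and 1141 TPM in Elav-positive against 409 and 530 TPM in Elav-negative cells, and repo measured 77.3 and 48.1 TPM against 4.56 and 4.05 TPM. Their part in the result was not tested. The changes at 8-10h (0.36 ± 0.32) and 18-22h (0.54 ± 0.32) were not called, and the difference between the 8-10h and the 6-8h enrichment did not pass the threshold (-1.49 ± 0.45, adjusted p 0.321). The Ind and Pros sorts gave changes between -0.21 and 0.54, with no call.

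**Figure D2:**
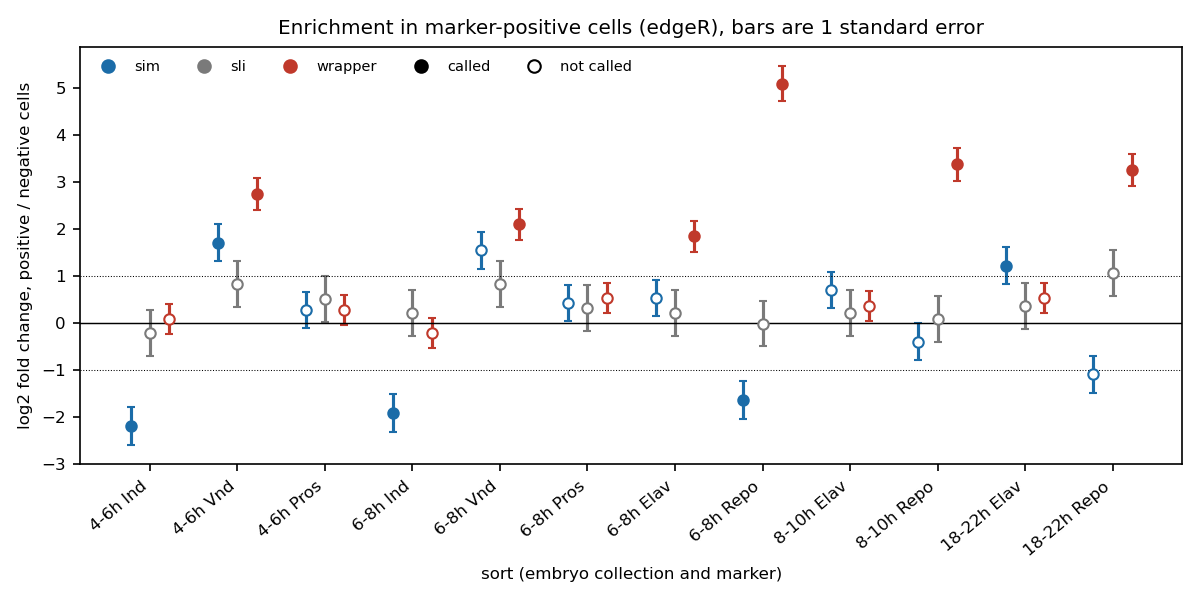
Log2 fold change of sim, sli and wrapper in marker-positive against marker-negative cells (vertical axis) in the 12 sorts (horizontal axis), from edgeR on read counts (bars are 1 standard error, filled points were called, dotted lines mark a log2 fold change of 1 and -1). The values of sim run from -2.20 in 4-6h Ind to 1.71 in 4-6h Vnd, those of wrapper reach 5.09 in 6-8h Repo, and sli was called in 0 of 12 sorts.

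Transcripts of sli were abundant in every library, and its level differed little between groups. The highest mean was in 4-6h Vnd-positive cells (405 and 435 TPM) and the lowest in 18-22h Elav-negative cells (130 and 142 TPM), a 3.09-fold range. Glia held 398 and 333 TPM at 6-8h, 296 and 224 TPM at 8-10h, and 319 and 349.6 TPM at 18-22h. Of the 23 neighbouring pairs in the order 21 overlapped, and only the first pair, 4-6h Vnd-positive against 6-8h Repo-positive cells, and the last pair were apart. The 6-8h Vnd-positive cells had 332 and 352 TPM, and the Vnd-negative cells 206 and 198 TPM at 4-6h and 159 and 166 TPM at 6-8h. In both Vnd sorts all positive libraries were thus above all negative libraries.

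Neurons held 254 and 456 TPM of sli at 6-8h, 401 and 299 TPM at 8-10h, and 224 and 263 TPM at 18-22h. The pair of 6-8h values came from the 2 fly lines of that sort, and the negative cells of the same lines were at 234 and 312 TPM. Elav-negative cells of 8-10h held 281 and 236 TPM. Repo-negative cells held 257 and 253 TPM at 6-8h, 208 and 177 TPM at 8-10h, and 163 and 201 TPM at 18-22h. Pros-positive cells had 285 and 286 TPM at 4-6h and 356 and 269 TPM at 6-8h, and Pros-negative cells 209 and 242 TPM and 285 and 239 TPM. The Pros fractions were apart at 4-6h and overlapped at 6-8h. Ind-positive cells had 192 and 188 TPM at 4-6h and 259 and 237 TPM at 6-8h, and Ind-negative cells 199.5 and 217 TPM and 245 and 209.7 TPM. At 4-6h the Ind-positive libraries were the lower ones, and at 6-8h the fractions overlapped.

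None of the 12 enrichments of sli was called by edgeR. At unadjusted p under 0.05 there was 1, in 18-22h Repo (1.06 ± 0.49, adjusted p 0.28). In the Vnd sorts the log2 fold change was 0.84 ± 0.49 at 4-6h (adjusted p 0.987) and 0.83 ± 0.49 at 6-8h (adjusted p 1), against 2.08-fold and 2.10-fold ratios of mean TPM. The 95% intervals ran from -0.16 to 1.84 and from -0.17 to 1.83. DESeq2 called sli in 4-6h Vnd (1.02, adjusted p 0.0381) and in 18-22h Repo (1.05, adjusted p 0.0136). A limma fit on log2(TPM + 1), added after the data were seen, called it in both Vnd sorts, at 1.05 (adjusted p 0.00132) and 1.07 (adjusted p 0.00155). The call for sli in the ventral column thus depends on the scale and the tool. Its direction was the same in all of these fits.

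Vnd-positive cells were next compared with the positive cells of the other populations of the same time, Ind and Pros at 4-6h and Ind, Pros, Elav and Repo at 6-8h. Against the equal-weight mean of these, sim was higher by 2.17 on the log2 scale at 4-6h (SE 0.32, adjusted p 7.56e-05) and by 2.28 at 6-8h (SE 0.27, adjusted p 1.43e-05). The share of all genes called was 12.9% and 24.3%. The median gene was shifted by 0.43 and 0.26 in the same contrasts, and relative to it sim was higher by 1.74 and 2.03. On log2(TPM + 1) the median shift was 1.24 and 1.15, and sim stood 1.76 and 1.97 above it. With the receptor level as a covariate the difference of sim was 2.07 (adjusted p 0.000241) and 2.18 (adjusted p 2.87e-05).

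Against single populations sim was higher in Vnd-positive cells in each of 6 comparisons, and all 6 were called. The difference was 2.86 to Ind-positive and 1.48 to Pros-positive cells at 4-6h (adjusted p 4.12e-05 and 0.032). At 6-8h it was 3.25 to Ind-positive (adjusted p 2.11e-05), 1.53 to Pros-positive (adjusted p 0.0234), 1.27 to Elav-positive (adjusted p 0.0173) and 3.08 to Repo-positive cells (adjusted p 7.06e-06). In the 6 comparisons 21.9%, 4.03%, 31.3%, 10.1%, 23.1% and 14.8% of all genes were called. The smaller differences, to Pros-positive cells at both times and to Elav-positive cells, lost their call when any 1 of their 4 libraries was left out (adjusted p from 0.104 to 0.277, from 0.066 to 0.356 and from 0.0509 to 0.0929). The call against Repo-positive cells was lost in a fit of only the groups compared (adjusted p 0.0567).

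The order was different for wrapper. At 4-6h it was higher in Vnd-positive cells than in the mean of Ind-positive and Pros-positive cells, by 2.87 (SE 0.27, adjusted p 2.1e-07), and by 3.67 and 2.07 against each (adjusted p 1.2e-07 and 0.000997). At 6-8h the difference to the mean of the 4 other populations was 0.19 (adjusted p 0.507), and relative to the median gene it was -0.06. It was 2.17 above Ind-positive cells (adjusted p 0.0001) and below Repo-positive cells by a log2 difference of -2.74 (adjusted p 1.58e-06). The differences to Pros-positive (0.87, interval 0.21 to 1.52) and Elav-positive cells (0.48, interval -0.17 to 1.12) were not called by this fit. Of 8 other settings 5 called the first (DESeq2 1.36, adjusted p 1.37e-05) and 3 the second (DESeq2 1.002, adjusted p 0.000545). On log2(TPM + 1) the difference to the mean was called (1.04, adjusted p 0.00206), and relative to the median gene of that fit it was -0.12. Against Pros-positive cells at 4-6h the call of wrapper was lost without Pros-positive replicate 2 (1.89, adjusted p 0.0564).

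For sli no difference between positive populations was called by edgeR, and in most comparisons its direction depended on the scale. Against the mean of the other positive populations the difference was -0.15 at 4-6h (adjusted p 0.782) and -0.88 at 6-8h (adjusted p 0.098). On log2(TPM + 1) these were 0.85 (adjusted p 0.000699) and 0.13 (adjusted p 0.468). Relative to the median gene, sli was lower in Vnd-positive cells on both scales, by -0.58 and -1.14 in counts and by -0.39 and -1.03 on log2(TPM + 1). With the receptor level as a covariate the values relative to the median turned to 0.72 and 0.15. In order of mean CPM the Vnd-positive cells were 13th at 4-6h and 19th at 6-8h of 24, whereas they were 1st and 5th in TPM. No order of sli that holds on both scales can be given for Vnd-positive against Ind-positive or Pros-positive cells. Against 6-8h Elav-positive and Repo-positive cells it was lower in counts (-0.94 and -0.88) and slightly lower by log2 ratio of mean TPM (-0.06 and -0.10). Neither was called, and on log2(TPM + 1) the difference to Elav-positive cells was 0.0047.

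**Figure D3:**
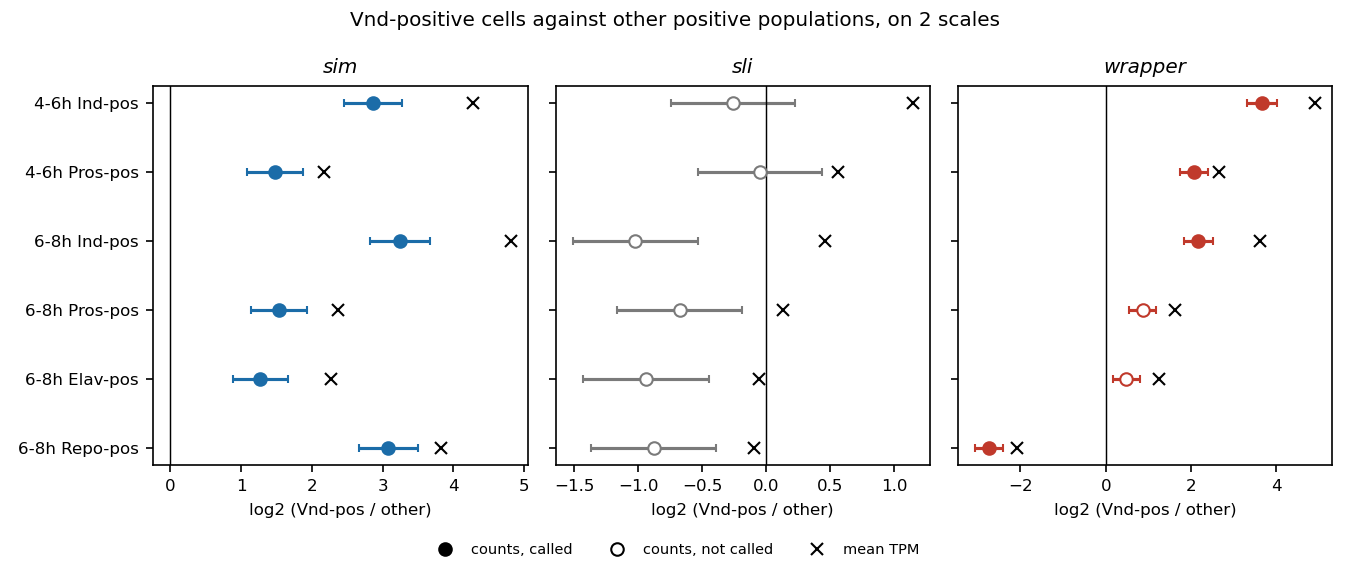
Log2 difference of Vnd-positive cells to each other positive population of the same time (rows) for sim, sli and wrapper, as fitted in edgeR on counts (circles, filled where called, bars are 1 standard error) and as the log2 ratio of mean TPM (crosses). Values of sim lie between 1.27 and 3.25 in counts, those of wrapper run from -2.74 against 6-8h Repo-positive to 3.67 against 4-6h Ind-positive cells, and those of sli are -1.02 to -0.05 in counts, with TPM ratios above 0 for 4 of the 6.

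Whether the enrichment in the ventral column differed from that in the other sorts of the same time was tested by interaction contrasts, added after the data were seen. These compare each positive fraction with its own negative fraction, of the same fly line. At 4-6h the enrichment of sim exceeded the mean of the Ind and Pros enrichments by 2.67 on the log2 scale (adjusted p 0.0144) and that of wrapper by 2.56 (adjusted p 0.00268), where 0.0877% of all genes were called. At 6-8h the difference to the mean of the 4 other sorts was 2.19 for sim (adjusted p 0.0168) and 0.28 for wrapper (adjusted p 1), where 0.520% of all genes were called. For sli it was 0.69 and 0.64 (adjusted p 1 each), and edgeR called 0 of 8 such differences of sli, with 0 at an unadjusted p under 0.05, whereas limma on log2(TPM + 1) called 1. Against single sorts 0.134% (Ind) and 0.316% (Pros) of all genes were called at 4-6h, and 0.123% (Ind), 0.228% (Pros), 6.16% (Elav) and 4.61% (Repo) at 6-8h. Neither sim (1.12 and 1.02, adjusted p 1 and 0.412) nor wrapper (1.56 and 0.25, adjusted p 0.299 and 0.999) differed by the threshold from the Pros and Elav enrichments at 6-8h. The differences of sim from the mean were not called when any 1 of the Vnd libraries of that time was left out.

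The negative fractions served as background, since each holds the cells of the embryo that lacked the marker of its sort. Of 24 such contrasts of the midline genes (Vnd-negative against the mean of the others and against each) the difference for sim was called in 0 of 8, with 1 of 8 at an unadjusted p under 0.05 (-1.04 to 4-6h Ind-negative, adjusted p 0.0753). On mean TPM sim was higher in Vnd-negative cells in each of these contrasts, with a log2 ratio of 0.36 to 4-6h Ind-negative cells. No direction of sim that holds on both scales can be given for that contrast. For wrapper 1 of 8 was called, 1.01 above 4-6h Ind-negative cells (adjusted p 0.0436), a contrast in which 9.66% of genes were called. For sli 3 of 8 were called, all at 6-8h and all lower in Vnd-negative cells. These were -1.52 against the mean of the other negative fractions (adjusted p 0.0198), -1.63 against Ind-negative (adjusted p 0.0275) and -1.72 against Repo-negative cells (adjusted p 0.0169). The first of these was lost in 7 of 10 fits without 1 library and with the receptor covariate (-0.79, adjusted p 0.0987). Of all genes 25.5%, 21.5% and 33.4% were called in these 3 contrasts. In the other negative contrasts the share was 0% (4-6h, mean of the others, with 1647 genes at an unadjusted p under 0.05), 0% (4-6h Pros-negative), 0.0292% (6-8h Pros-negative) and 0.105% (Elav-negative).

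Between 4-6h and 6-8h no member changed in the ventral column by the criteria used. For wrapper the 2 ages did not overlap in Vnd-positive cells (111 and 115 against 66.3 and 62.2 TPM), and the difference was -1.01 ± 0.32 (unadjusted p 0.00356, adjusted p 1). It was -0.05 ± 0.38 for sim and -0.54 ± 0.49 for sli. Of all genes 0.00584% were called there. The change of the enrichment itself was -0.65 ± 0.45 for wrapper, -0.16 ± 0.54 for sim and -0.01 ± 0.69 for sli (adjusted p 1 each), with 0 of 17109 genes called by edgeR and 63 at an unadjusted p under 0.05. Among the other populations 0 of 18 changes between consecutive times were called for the 3 genes by edgeR, with 3 at an unadjusted p under 0.05, the 8-10h against 6-8h changes of wrapper in Elav and Repo and of sim in Repo (1.24 ± 0.55). DESeq2 called 2 of the 18. Of all genes 0.00584% to 0.514% were called in these contrasts (0.0175% for Ind, 0.00584% for Pros, 0.0117% and 0.514% for Elav, 0.0117% and 0.321% for Repo). In Vnd-negative cells 0 of the 3 genes changed between the times by edgeR, with 0 at an unadjusted p under 0.05, and 0.0234% of all genes were called.

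Repo-positive glia and neurons were compared directly. Midline glia, from which wrapper and sli are known, lack Repo, and which Repo-positive cells hold wrapper was not tested. Repo-positive cells were higher in wrapper than Elav-positive cells at all 3 times, by 3.21 ± 0.34 at 6-8h (adjusted p 2.98e-07), 2.67 ± 0.34 at 8-10h (adjusted p 7.81e-06) and 2.60 ± 0.34 at 18-22h (adjusted p 3.15e-06). They were lower in sim at 6-8h (-1.81 ± 0.40, adjusted p 0.00178) and at 18-22h (-1.66 ± 0.40, adjusted p 0.00399), and the difference at 8-10h was not called (-1.07 ± 0.39, adjusted p 0.101). For sli the differences were -0.06, -0.61 and 0.77, with 0 of 3 called by edgeR and 0 at an unadjusted p under 0.05. Of all genes 11.7%, 6.89% and 12.3% were called. Between the negative fractions 0 of 9 differences of these genes were called by edgeR, and 0 had an unadjusted p under 0.05, where 0.00584%, 0.807% and 2.17% of all genes were called. The sim difference at 6-8h was not called without Repo-positive replicate 1 (-1.22, adjusted p 0.0785), and at 18-22h without Elav-positive replicate 2 (-1.38, adjusted p 0.0554) or Repo-positive replicate 2 (-1.59, adjusted p 0.0549). Without Elav-positive replicate 2 the one at 8-10h was called (-1.57, adjusted p 0.0113). In a fit of only the groups compared the wrapper difference at 8-10h was 2.66 (adjusted p 0.58).

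The transcripts of sim start at 3 positions, and the rise in Vnd-positive cells was seen for all of them at 6-8h. The distal start at 13057755 serves sim-RB and sim-RD, the middle start at 13062522 serves sim-RC, and the proximal start at 13072399 serves sim-RA. Values for single transcripts are a model's division of shared reads and are given as a description. The distal start held 29.4 and 31.0 TPM in 4-6h Vnd-positive cells, which was 57.8% and 60.4% of the gene, against 4.63 and 7.21 TPM in Vnd-negative cells. At 6-8h it held 28.0 and 34.5 TPM against 7.63 and 11.0 TPM. The middle start held 16.5 and 12.8 TPM in 4-6h Vnd-positive and 2.04 and 3.44 TPM in 4-6h Vnd-negative cells, and 18.1 and 17.0 against 4.62 and 5.03 TPM at 6-8h.

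The proximal start behaved otherwise. In 4-6h Vnd sorts sim-RA held 4.96 and 7.52 TPM in positive and 6.12 and 4.68 TPM in negative cells, and the fractions overlapped. At 6-8h it held 11.0 and 10.9 TPM in positive and 3.24 and 2.91 TPM in negative cells. The distal start also led in neurons, with 10.9 and 9.96 TPM in 6-8h Elav-positive cells, or 85.3% and 83.5% of the gene.

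For sli, 5 of the 6 transcripts start at 15922118 on the minus strand, and sli-RE starts at 15890917. In Vnd-positive cells the shared upstream start accounted for the level of the gene, with 405 and 435 TPM at 4-6h and 332 and 352 TPM at 6-8h, and sli-RE was below 0.01 TPM in all 4 libraries. The same was true of all Pros-, Elav- and Repo-positive libraries. In Vnd-negative cells sli-RE held 39.0 and 35.9 TPM at 4-6h and 39.8 and 48.8 TPM at 6-8h. The upstream start there held 167 and 162 TPM, and 120 and 117 TPM. Estimates of sli-RE of 1 TPM or more were otherwise found in Ind-positive cells (24.6 and 28.8 TPM at 4-6h, 18.0 and 22.9 TPM at 6-8h), in the other negative fractions of 4-6h and 6-8h, and in 8-10h Repo-negative cells (5.19 and 3.73 TPM). The highest were 83.0 and 116 TPM in 4-6h Ind-negative cells. In 6-8h Elav-negative cells replicate 1 had 57.3 TPM and replicate 2 none above 0.01 TPM, and in the 8 libraries of 18-22h sli-RE was listed at 0. In all, 27 of 48 libraries were below 0.01 TPM. These are estimates of how shared reads divide, and reads over single junctions were not analysed here.

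**Figure D4:**
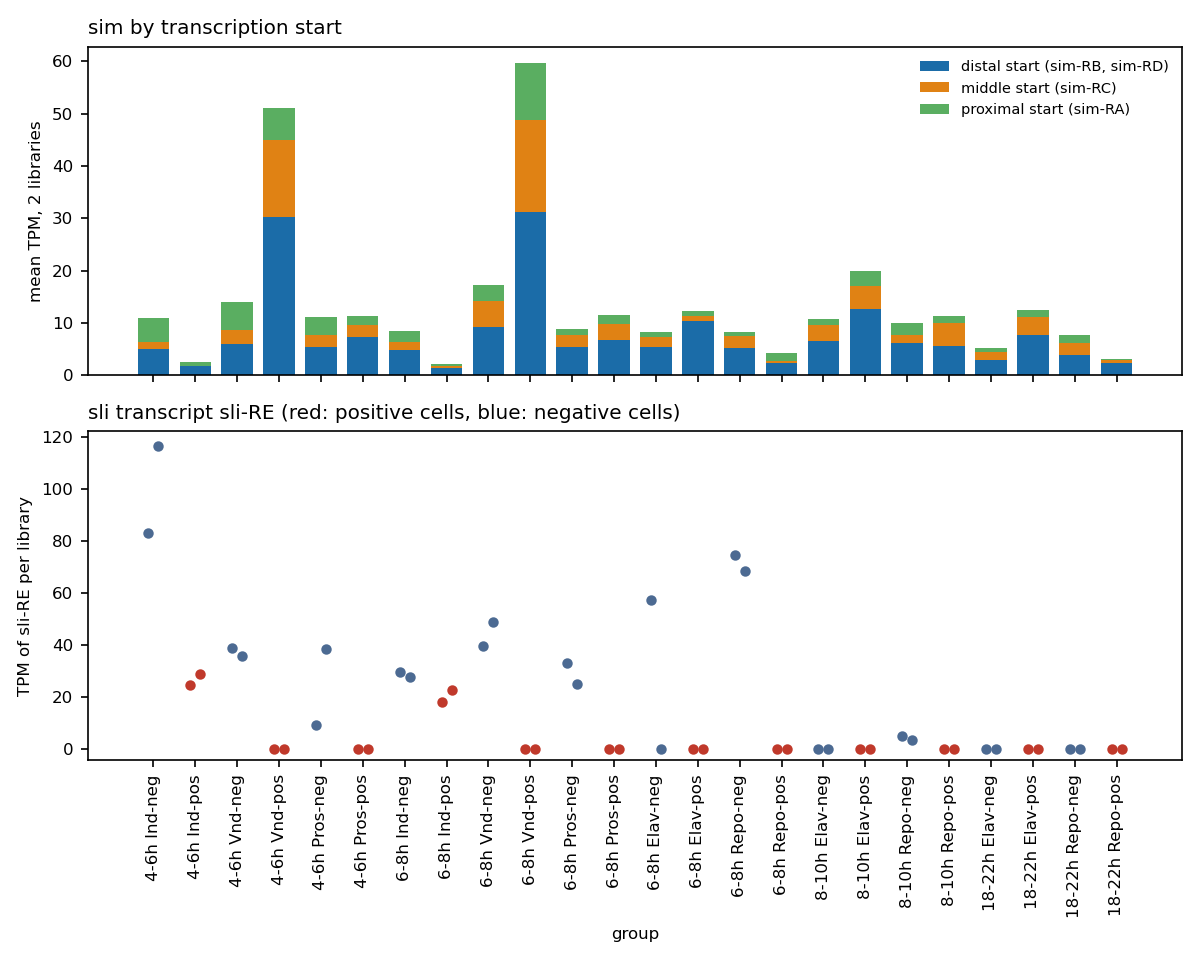
Upper panel: mean TPM of sim by transcription start in each of the 24 groups (stacked bars, 2 libraries per mean). Lower panel: TPM of the transcript sli-RE in each library (red positive, blue negative cells). Vnd-positive bars are the tallest, with 29.4 and 31.0 TPM from the distal start in the 4-6h libraries. The transcript sli-RE is below 0.01 TPM in Vnd-, Pros-, Elav- and Repo-positive cells and at 35.9 to 48.8 TPM in Vnd-negative cells.

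Likeness of pattern was measured as Pearson's r of log2(TPM + 1) over the 24 group means, among 16974 genes with a highest group mean of at least 5 TPM. The group means share their libraries' depth and background, and r is a description. The 5 genes most like sim were CG11498 (r 0.87), CG11241 (0.86), croc (0.83), CG15201 (0.83) and CG31115 (0.82). The highest mean of CG11498, croc and CG31115 was in 6-8h Vnd-positive cells (44.0, 35.5 and 26.1 TPM) and that of CG15201 in 4-6h Vnd-positive cells (24.4 TPM). That of CG11241 was in 8-10h Elav-positive cells (26.6 TPM). The gene croc encodes a forkhead-domain transcription factor. Those most like wrapper were CG8701 (0.94), NANS (0.94), boly (0.93), pdm3 (0.93) and Buffy (0.93), with the highest mean in a Repo-positive group each, and pdm3, a POU-domain factor, was at 218 TPM at 18-22h. For sli the likeness was lower, with CG3638 (0.83), Efa6 (0.83), CG33752 (0.81), lncRNA:CR43956 (0.80) and fra (0.80), a Netrin receptor, each highest in Elav-positive cells. Over the 48 libraries in place of the group means, CG15201 and CG31115 were at rank 44 and 52 for sim, CG33752 and lncRNA:CR43956 at rank 11 and 105 for sli, and NANS, boly and Buffy at rank 7, 10 and 14 for wrapper, while the others stayed within the first 5. Among the members themselves r was 0.34 for sim with sli, 0.24 for sim with wrapper and 0.55 for sli with wrapper.

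Other genes of the midline and of the Slit pathway were counted from lists chosen by function, with earlier results of these data known. Of 14 genes of EGF and FGF signalling and other midline genes, 1 was enriched in Vnd-positive cells at each time, where 0.684% and 0.140% of all genes were called, and it was oc (orthodenticle), a homeodomain factor. At an unadjusted p under 0.05 there were 3 and 4, and DESeq2 called 3 at 4-6h (NetB, oc and rho) and 4 at 6-8h (NetB, mfas, oc and rho). The level of oc was 132 and 150.2 TPM in 4-6h Vnd-positive cells against 25.0 and 25.2 TPM in Vnd-negative cells, and 122 and 128 against 18.9 and 16.9 TPM at 6-8h. The change was 2.33 ± 0.39 at 4-6h (adjusted p 0.00373) and 2.54 ± 0.39 at 6-8h (adjusted p 0.0025). The median log2 fold change of the list was 0.28 and 0.30, against 0.03 and 0.00 for all genes. Of this list aos (3.27 ± 0.39, adjusted p 1.26e-06), which encodes a secreted inhibitor of EGF signalling, and rho (2.82 ± 0.40, adjusted p 1.72e-05), a protease that releases EGF ligands, changed the most in any sort, in 18-22h Repo-positive cells.

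Among 6 genes of midline neuron identity, 2 were enriched in the ventral column at 4-6h and 1 at 6-8h, against 0.684% and 0.140% of all genes. DESeq2 called 2 at each time, Tbh and Vmat. The vesicular monoamine transporter Vmat held 151 and 158 TPM in 4-6h Vnd-positive against 13.4 and 15.9 TPM in Vnd-negative cells (3.33 ± 0.51, adjusted p 0.00148), and 99.5 and 103 against 16.9 and 18.4 TPM at 6-8h (2.55 ± 0.49, adjusted p 0.0211). Tbh, the enzyme that makes octopamine, held 30.3 and 31.8 TPM against 5.38 and 6.11 TPM at 4-6h (2.29 ± 0.48, adjusted p 0.0221). Neither fraction overlapped the other for these genes, and both genes were called in the same sort as sim and wrapper. The list median was 1.03 at 4-6h and 0.65 at 6-8h. Elsewhere Vmat was enriched in 6-8h neurons (5.68 ± 0.57, adjusted p 8.69e-09), and DAT, the dopamine transporter, in 6-8h glia (7.27 ± 0.88, adjusted p 8.28e-07). DAT rose there from 0.138 and 0.126 TPM to 21.6 and 40.5 TPM.

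In the Vnd sorts 0.684% (4-6h) and 0.140% (6-8h) of all genes were called, and at these shares a count of 0 does not set a short list apart. Of 11 genes of mesectoderm specification and Sim partners 0 were called in either Vnd sort by edgeR, and the median was -0.09 and -0.13. At an unadjusted p under 0.05 there were 4 at 4-6h and 3 at 6-8h, and DESeq2 called 4 (D, sna, twi and vvl) and 2 (D and twi). These counts take in changes in either direction. By edgeR 4 of the 11 genes had a positive log2 fold change at each time. The partner gene tgo measured 116 and 120.2 TPM in 4-6h Vnd-positive and 118 and 115 TPM in 4-6h Vnd-negative cells, with overlap. The members of the list that changed the most in any sort were twi, a mesoderm determinant, in 4-6h Ind (-3.41 ± 0.40, adjusted p 3.88e-06), and D (Dichaete), a Sox factor, in 6-8h Ind (2.70 ± 0.40, adjusted p 7.55e-05). Of 9 genes of the bHLH-PAS family, 0 were called in the Vnd sorts by edgeR or DESeq2, with 0 at 4-6h and 1 at 6-8h at an unadjusted p under 0.05. The 2 of them that changed the most were ss in 18-22h neurons (3.24 ± 0.45, adjusted p 2.62e-06) and Clk in 6-8h neurons (-2.90 ± 0.55, adjusted p 0.000201).

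Of 10 genes that receive or transmit the Slit signal, 0 were called in the ventral column by edgeR, where 0.684% and 0.140% of all genes were called. The list medians were 0.11 and 0.03. At an unadjusted p under 0.05 there was 1 at each time, robo3, which DESeq2 called at both. In 6-8h neurons 4 were enriched and 1 depleted, in a sort where 17.0% of all genes were called. The receptor gene robo3 held 109 and 221 TPM in 6-8h Elav-positive cells against 2.15 and 0.315 TPM in Elav-negative cells (6.99 ± 0.71, adjusted p 1.2e-08), with no overlap. In the ventral column it measured 43.4 and 47.97 TPM against 8.73 and 8.30 TPM at 4-6h, which did not pass the threshold (2.20 ± 0.57, adjusted p 0.0681). The gene comm2, related to the Robo sorting factor comm, was depleted in 8-10h neurons (-3.23 ± 0.46, adjusted p 7.69e-06).

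**Figure D5:**
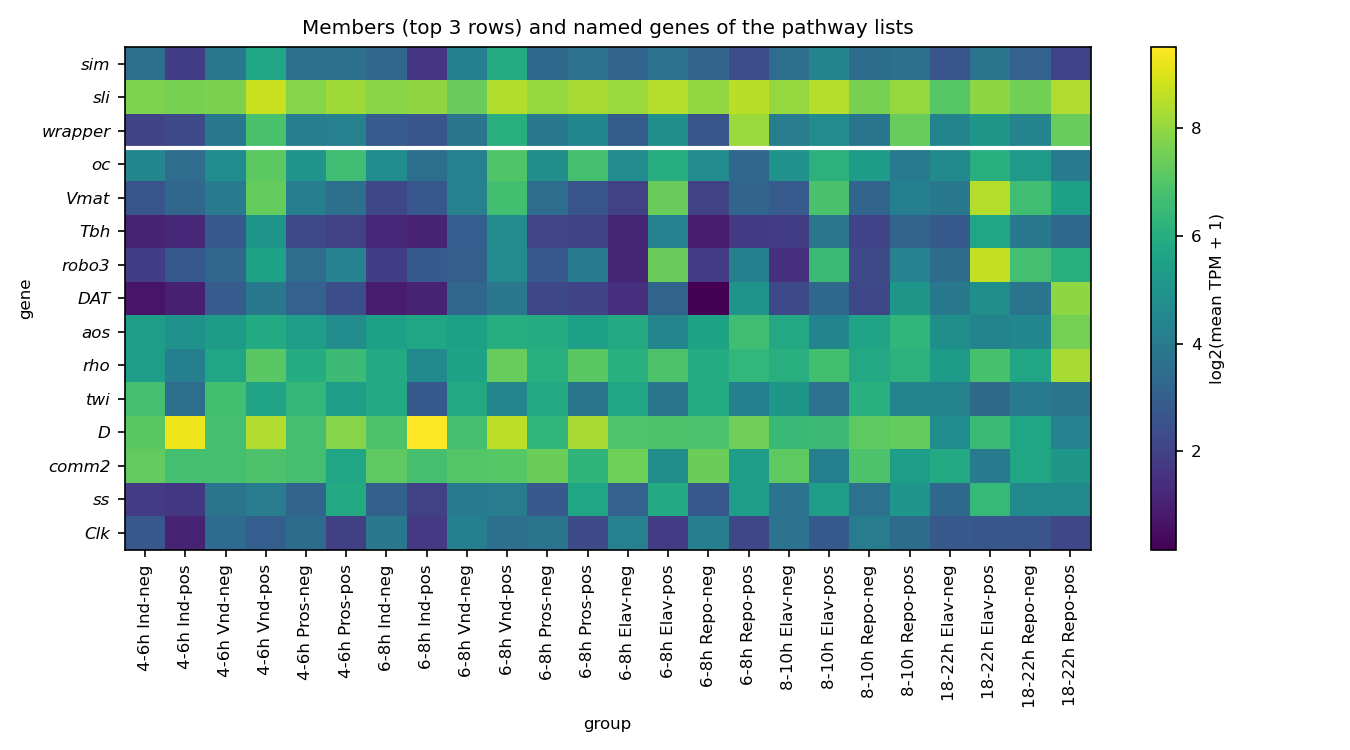
Mean level, as log2(mean TPM + 1), of the 3 midline genes and 12 genes of the functional lists (rows) in the 24 groups (columns), from dark (low) to yellow (high). In 4-6h and 6-8h Vnd-positive columns oc and Vmat are brighter than in the Vnd-negative columns beside them (132 and 150.2 against 25.0 and 25.2 TPM for oc at 4-6h), and robo3 is brightest in 18-22h Elav-positive cells.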

How the data were processed

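RNA was sequenced from fixed, sorted cells with ribosomal RNA depletion and stranded libraries, in 48 libraries of 24 groups with 2 replicates each. The authors quantified transcripts with Salmon 0.8.1 on a reference made with RSEM 1.3.0 (dm6, FlyBase 6.15), and the deposited files hold estimated counts and TPM for 34428 transcripts. Other columns that the authors deposited, effective lengths among them, served for length-scaled alternatives. The authors' tables of comparisons (DESeq2 log2 fold change, adjusted p-value and mean normalised signal, as deposited) were not used. Here transcripts were summed to 17257 genes, with 305 transcripts (0.241% to 0.502% of reads) matching no annotated gene, and estimated counts were rounded to whole numbers.

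Library totals of 18120862 to 113452420 reads set the precision. Genes passing edgeR's filter for low counts (17109) were fitted over all 24 groups in edgeR 4.0.16 (R 4.3.3) by its quasi-likelihood test, with TMM factors and 24 residual degrees of freedom. P-values were adjusted by the Benjamini-Hochberg method, with thresholds of 0.05 on the adjusted p and of 1 on the size of the log2 fold change. The alternatives were DESeq2 1.42.0, median-of-ratios factors, no filter on low counts, length-scaled counts, a receptor covariate, only the groups compared, a replicate block, leaving out each library, and limma 3.58.1 on log2(TPM + 1). The limma fit and the differences between enrichments were added after the data were seen. Group levels are means with SD of TPM. Tables and figures used Python 3.11.15, numpy 2.4.6, pandas 2.3.3 and matplotlib 3.10.9. The steps were tested on simulated data for 4-6h Vnd-positive against Vnd-negative cells. Of 100 genes changed 4-fold 69 were called, and of 100 changed 8-fold 93, with 3 false calls. Smaller changes were not simulated.

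The numbers of the replicates stand for different fly lines in both fractions of 6-8h Elav only, per the labels. The correlation of the deviations of same-numbered libraries from their group means was 0.52 there and ranged from -0.55 (18-22h Elav) to 0.72 (8-10h Elav) over the 12 sorts, with -0.24 and 0.0094 in 4-6h and 6-8h Vnd. The genes and lists were chosen with earlier results of these data known. Genes of the lists were named if called in a Vnd sort, or if among the 2 with the largest change in any sort, and for each midline gene the 5 of most like pattern. The level of robo3 in the ventral column was added after its values were seen. Promoter motifs were not analysed here.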

Additional observations from a re-analysis of the deposited data

Results flagged for a closer look

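The enrichment in the Vnd sorts was compared with the enrichment in the other sorts of the same time by interaction contrasts in edgeR, chosen after the data were seen, and 10 of these differences passed the threshold. At 4-6h the difference to the mean of the other enrichments was 2.67 for sim (SE 0.48, adjusted p 0.0144) and 2.56 for wrapper (SE 0.40, adjusted p 0.00268). The first was lost without any 1 of the 4 Vnd libraries and the second without either Vnd-negative library. Against the Ind enrichment the difference was 3.90 for sim (adjusted p 0.000742) and 2.66 for wrapper (adjusted p 0.00588), and against the Pros enrichment 2.47 for wrapper (adjusted p 0.00867). For sim the difference to Pros was 1.43 (adjusted p 0.42).

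At 6-8h sim differed by 2.19 from the mean of the other enrichments (SE 0.44, adjusted p 0.0168), by 3.45 from Ind (adjusted p 0.0023) and by 3.19 from Repo (adjusted p 0.000508). For wrapper the difference was 2.30 to Ind (adjusted p 0.0244) and -2.99 to Repo (adjusted p 9.2e-05). Not called at 6-8h were the differences to Pros (1.12 for sim, adjusted p 1, and 1.56 for wrapper, adjusted p 0.299) and to Elav (1.02 for sim, adjusted p 0.412, and 0.25 for wrapper, adjusted p 0.999). The differences of sim to Ind at 4-6h, and of sim and wrapper to Repo, passed the threshold in each fit without 1 library. The others were lost without at least 1: sim to the mean at 6-8h without each Vnd library, wrapper to Ind in 4 of 8 fits at 4-6h and in 8 of 8 at 6-8h, wrapper to Pros in 7 of 8, and sim to Ind at 6-8h without Ind-positive replicate 1. With the replicate block, calls were also lost for sim to the mean at 4-6h (2.70, adjusted p 0.0542) and at 6-8h (2.24, adjusted p 0.0501) and for wrapper to Ind at 6-8h (2.31, adjusted p 0.0628). Groups of 2 libraries were too small to test single libraries as outliers.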

How the results depend on the processing

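Of the values of the midline genes in the main comparisons under settings other than leaving out a library, 19 of 432 reversed, 14 gained a call and 7 lost one. Values are log2 differences, and the cause was not tested. With median-of-ratios factors the enrichment of sim in 6-8h Vnd passed the threshold (1.68), and sli reversed in 6-8h Repo (0.35), 4-6h Vnd-positive against the mean (0.19), Ind-positive (0.12) and Pros-positive cells (0.26), and 6-8h Repo-positive against Elav-positive cells (0.15). DESeq2 gave these sli reversals with the same values (0.35, 0.19, 0.12, 0.26 and 0.15), and called sim in 6-8h Vnd (1.68) and 18-22h Repo (-1.09) and sli in 4-6h Vnd (1.02) and 18-22h Repo (1.05). With the receptor covariate sim in 6-8h Vnd (1.53) and in 8-10h Repo-positive against Elav-positive cells (-1.15) was called, wrapper in 4-6h Ind reversed (-0.015), and so did sli in the same 5 comparisons (0.44, 0.58, 0.80, 0.36 and 0.063).

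In fits of only the groups compared, sim was called in 6-8h Vnd (1.59), sli in 18-22h Repo (1.14) and 18-22h Repo-positive against Elav-positive cells (1.05). Calls were lost for wrapper in 6-8h Elav (1.89) and 8-10h Repo-positive against Elav-positive cells (2.66), and for sim in 6-8h Repo (-1.47), 18-22h Elav (1.24) and 6-8h Repo-positive against Elav-positive cells (-1.43). There sli reversed in 6-8h Repo (0.24), 8-10h Elav (-0.029), 4-6h Vnd-positive against Pros-positive (0.041) and 6-8h Repo-positive against Elav-positive cells (0.32). In limma on log2(TPM + 1), chosen after the data were seen, sim (1.74) and sli (1.07) in 6-8h Vnd, sli in 4-6h Vnd (1.05) and wrapper in 6-8h Vnd-positive against the mean (1.04) were called, and sim in 6-8h Repo was not (-1.05). It reversed sim in 8-10h Repo (0.065) and sli in 6-8h Repo (0.51), 4-6h Vnd-positive against the mean (0.85), Ind (1.14) and Pros (0.56), 6-8h Vnd-positive against the mean (0.13), Ind (0.46), Pros (0.14) and Elav (0.0047), 6-8h Repo-positive against Elav-positive cells (0.10), and the Vnd change with time (0.016). With the replicate block, which the labels back by fly line in 6-8h Elav and in no other sort, sim in 4-6h Vnd was 1.70 (adjusted p 0.0678) and lost its call. It changed no other call in the 12 sorts. In order of CPM, Vnd-positive cells were 1st (4-6h) and 2nd (6-8h) for sim, and 13th and 19th for sli, of 24. Promoter motifs were not run.

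Leaving out 1 library at a time gave the following ranges where a call or direction changed. For sim they were 1.56 to 1.84 in 4-6h Vnd, -2.08 to -1.74 in 6-8h Ind, -2.30 to -0.89 in 6-8h Repo, 0.96 to 1.44 in 18-22h Elav, and -0.41 to 0.0062 for the Vnd change with time. In Repo-positive against Elav-positive cells sim ranged from -2.63 to -1.22 at 6-8h, -1.57 to -0.64 at 8-10h and -1.85 to -1.38 at 18-22h. For wrapper they were 2.59 to 2.88 in 4-6h Vnd, 1.89 to 2.25 in 6-8h Vnd, -0.11 to 0.24 in 4-6h Ind and -0.49 to 0.92 in 8-10h Elav. The 6-8h Vnd enrichment of wrapper differed from the mean of the others by -0.027 to 0.34 and from Elav by -0.24 to 0.49. For sli they were -0.12 to 0.65 in 6-8h Pros, -0.29 to 0.67 in 6-8h Elav, -0.17 to 0.67 in 6-8h Repo, -1.02 to 0.88 in 8-10h Elav, -0.84 to 0.52 in 8-10h Repo, -0.17 to 1.33 in 18-22h Elav, and -0.23 to 0.18 for the Vnd change with time. Between populations sli ranged from -0.34 to 0.013 in 4-6h Vnd-positive against the mean, -0.24 to 0.12 against Pros-positive cells, and, for Repo-positive against Elav-positive cells, -0.38 to 0.66 at 6-8h and -1.50 to 0.57 at 8-10h. By replicate 2 alone the rank of sli in TPM was 2 in 4-6h and 3 in 6-8h Vnd-positive cells (1 and 5 by the mean). Counts of genes called fell to 0 to 61 in 4-6h Vnd (117 with all libraries) and to 0 to 6 in 6-8h Vnd (24). Under the other settings they ranged from 95 to 880 in 4-6h Vnd and from 17 to 504 in 6-8h Vnd, with 95 and 17 under the replicate block. The ranges were 735 to 1638 in 4-6h Ind (769 as reported), 398 to 938 in 6-8h Ind (399), 927 to 1844 in 4-6h Pros (989), 588 to 1195 in 6-8h Pros (611), 1103 to 4043 in 6-8h Elav (2910), 1885 to 4195 in 6-8h Repo (3040), 340 to 3001 in 8-10h Elav (2311), 237 to 1223 in 8-10h Repo (664), 0 to 4721 in 18-22h Elav (3567), and 998 to 1939 in 18-22h Repo (1001). For Vnd-positive cells against the mean of the others they were 772 to 5231 at 4-6h (2215) and 810 to 7974 at 6-8h (4151).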
